A study of Mus musculus with 42 samples.

Results

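The solute carrier genes encode the transporters that move nutrients, ions, metals and metabolites across cell membranes, and 184 of them were followed here through an RNA immunoprecipitation of Tnrc6a in mouse embryonic stem (ES) cells. Members were the genes named Slc with a family number, the letter a and a member number whose mean raw count over the input libraries was at least 50 in both count tables. The symbol pattern found 260 genes in either table. Of the others, 56 stood in both tables below the threshold and 20 were listed in 1 table alone. The tables held 18825 and 19866 genes in all. Just outside the threshold lay Slc7a4, with mean input counts of 51.4 and 48.6 in experiments 1 and 2, Slc7a2 (62.1 and 49.1) and Slc22a23 (49.4 and 59.3). Just inside lay Slc25a31 (68.7 and 55.7), Slc19a3 (57.2 and 69.1) and Slc32a1 (61.7 and 57.3). Among the 184, 5 carry the family name with a suffix and are not transporters themselves. All 184 passed the low-count filter of both experiments.

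The study sequenced 42 libraries in 2 experiments, each group in triplicate, from cells of the 129S6/SvEvTac line carrying the reporter GFP_5xT71BS and a stably transfected FLAG-Cas9. Experiment 1 compared untagged cells, cells whose Tnrc6a carried an HA-AVI tag, and tagged cells labelled Trim71-/-. Experiment 2 repeated these 3 genotypes and added tagged cells labelled Ago2-/-. From every genotype the total RNA of the lysate (input) and the RNA recovered by immunoprecipitation (IP) were sequenced. Every genotype, the untagged control included, carried the reporter and Cas9, and all were grown on gelatin in serum with LIF. The labels do not say whether a genotype was 1 clone or several, nor whether replicates came from separate cultures, so p-values measure the spread between these libraries, which may be technical.

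Tnrc6a, also called GW182, is the scaffold that Argonaute proteins loaded with microRNAs recruit to a messenger RNA, and it brings deadenylation and translational repression to the bound transcript. Trim71 is an RNA-binding protein of early embryonic cells that silences its own targets by recognising a hairpin. Solute carrier messages for the plasma membrane, lysosome and Golgi are translated at the endoplasmic reticulum, whereas the mitochondrial carriers of family 25 are made in the cytosol and imported afterwards.

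The microRNAs that Ago2 carries most abundantly in ES cells belong to a family with a common seed, the stretch that pairs with a target. The mature sequences from RefSeq (GRCm38.p6) are printed to show that shared seed, bases 2 to 8, in capitals. MicroRNA levels and target sites in the members were not analysed here.
miR-291a-3p: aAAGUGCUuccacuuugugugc
miR-294-3p: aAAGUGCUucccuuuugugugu
miR-295-3p: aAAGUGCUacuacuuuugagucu
miR-302d-3p: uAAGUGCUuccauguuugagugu

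Library totals ran from 12587257 to 23657840 counts in experiment 1 and from 16296447 to 21026552 in experiment 2. The members took 0.94 to 1.21% of the counts of the inputs in experiment 1, 0.633 to 0.666% in the untagged IP, 0.958 to 0.98% in the tagged IP and 1.02 to 1.19% in the IP labelled Trim71KO. The untagged IP (0.955 to 1.07%) and the tagged IP (0.85 to 1.03%) of experiment 2 overlapped. Input Ago2 RNA was 162 ± 4.76 CPM (CPM, a library-scaled count, as mean ± SD over 3 libraries) in cells labelled Ago2KO against 353 ± 34.9 in tagged cells. Input Trim71 RNA, in contrast, was 282 ± 3.18 CPM in cells labelled Trim71KO against 241 ± 21.2 in tagged cells of experiment 1, and 377 ± 9.61 against 282 ± 23.5 in experiment 2. Counts over the whole gene thus do not show the deletion, and the groups are called here by their labels. All 10 ES cell markers on a fixed list were present, summing to 7363 to 10210 CPM in the input libraries. The tagged IP contained Tnrc6a RNA itself at 22950 ± 5649 CPM in experiment 1 and 18120 ± 5692 in experiment 2, against 92.4 ± 2.48 and 82.4 ± 8.06 in the untagged IP.

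Levels between genes are compared on the RPKM scale (reads scaled to gene length and library total) of the authors' tables. The median member had a mean input level of 3.91 RPKM in experiment 1 and 3.92 in experiment 2, close to the 3.83 and 3.75 of all genes. In each experiment 43 members reached 10 RPKM. Slc25a5, the ADP/ATP carrier of the inner mitochondrial membrane, was the most abundant, at 336 RPKM (303 to 378 over the 9 inputs of experiment 1) and 353 RPKM in experiment 2. Slc2a3, a high-affinity glucose transporter, followed at 166 and 235 RPKM. Slc7a5, the large neutral amino acid transporter that pairs with Slc3a2, had 91.4 and 56.4 RPKM, and Slc3a2 itself 81.8 and 49.9 RPKM. In the remaining classes the most abundant members were Slc29a1 (nucleosides), Slc39a7 (zinc), Slc16a1 (lactate and pyruvate), Slc20a1 (phosphate), Slc35a1 (CMP-sialic acid) and the scaffold protein Slc9a3r1. Glucose transporter Slc2a1 differed between the experiments, with 90.2 RPKM in experiment 1 and 200 RPKM in experiment 2, where tables were normalised separately and no test was made.

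In untagged cells, whose IP serves as the background, many transporter messages were lower in the IP than in the input in experiment 1. Of the 184 members 49 were lower in the IP than in the input (edgeR's quasi-likelihood test, adjusted p under 0.05), 26.6% of members against 4.9% of the 18772 genes tested. Only 6 were higher, 3.26% against 7.21% of all genes, so that 55 were called in either direction (29.9%, against 12.1%). Over members the median log2 IP-to-input ratio was -0.26 and over all genes -0.03. The classes made at the endoplasmic reticulum accounted for 48 of the 49 lower calls among 143 members. Among 36 mitochondrial carriers, 1 was lower and 2 were higher, and their median was -0.10 against -0.32 for the 143. This difference between the classes was not tested. When libraries were scaled by total count alone, the median of all genes moved to -0.42 and the calls to 156 lower and 2 higher. A fit of the untagged libraries alone called 78 members lower, and leaving out single libraries gave 26 (untagged IP replicate 1), 29 (untagged IP replicate 2), 39 (untagged IP replicate 3) and 32, 28 and 29 (untagged input replicates 1, 2 and 3). The 6 higher became 3 without any 1 of those inputs or untagged IP replicate 1, and 2 without untagged IP replicate 2.

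By class the lower members were 14 of 39 carriers of amino acids, peptides and neurotransmitters, 7 of 15 of sugars and polyols, 7 of 20 of carboxylates, lipids and other organic solutes, 7 of 24 of metals and heme, 6 of 27 of inorganic ions, 5 of 12 of vitamins and nucleosides and 2 of 6 of nucleotide sugars. Slc7a5 had 308, 324 and 343 CPM in the 3 untagged inputs and 204, 211 and 225 CPM in the 3 untagged IPs. The groups did not overlap, and the log2 ratio was -0.61 ± 0.09 (SE, adjusted p = 2.33e-05). Other low ratios belonged to Slc12a5, a neuronal potassium-chloride cotransporter (-0.88), Slc1a1, a glutamate transporter (-0.86), Slc5a3, the myo-inositol transporter (-0.69), and Slc22a5, the carnitine transporter (-0.66). The lysosomal sialic acid exporter Slc17a5 went the other way. Its untagged inputs had 6.58, 7.3 and 6.75 CPM and its untagged IPs 15.8, 20.3 and 16.4 CPM, a log2 ratio of 1.35 ± 0.17 (adjusted p = 5.25e-06). Slc22a17, a receptor for lipocalin, rose by 1.24.

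The lists of comparison genes gave the following counts in the same contrast. Of 56 other carrier genes named outside the rule (Slco, Slc35b to g, Mfsd and similar) 11 were lower and 2 higher. Of 46 genes of endoplasmic reticulum translocation 16 were lower and 1 higher. Of 23 genes of mitochondrial protein import 1 was lower and 4 were higher, and of 33 ABC transporters 3 were lower and 0 higher. In experiment 2 the untagged IP gave 0 lower and 0 higher members (all genes 0.278% and 0.45%, together 0.728%), with 15 members at an unadjusted p under 0.05 (8.15%, against 12.5% of all genes), and DESeq2 also called 0. The member median was -0.04. Slc7a5 had 218, 215 and 207 CPM in the inputs and 199, 199 and 198 CPM in the IPs, a log2 ratio of -0.10 ± 0.09 (adjusted p = 0.685).

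**Figure D1:**
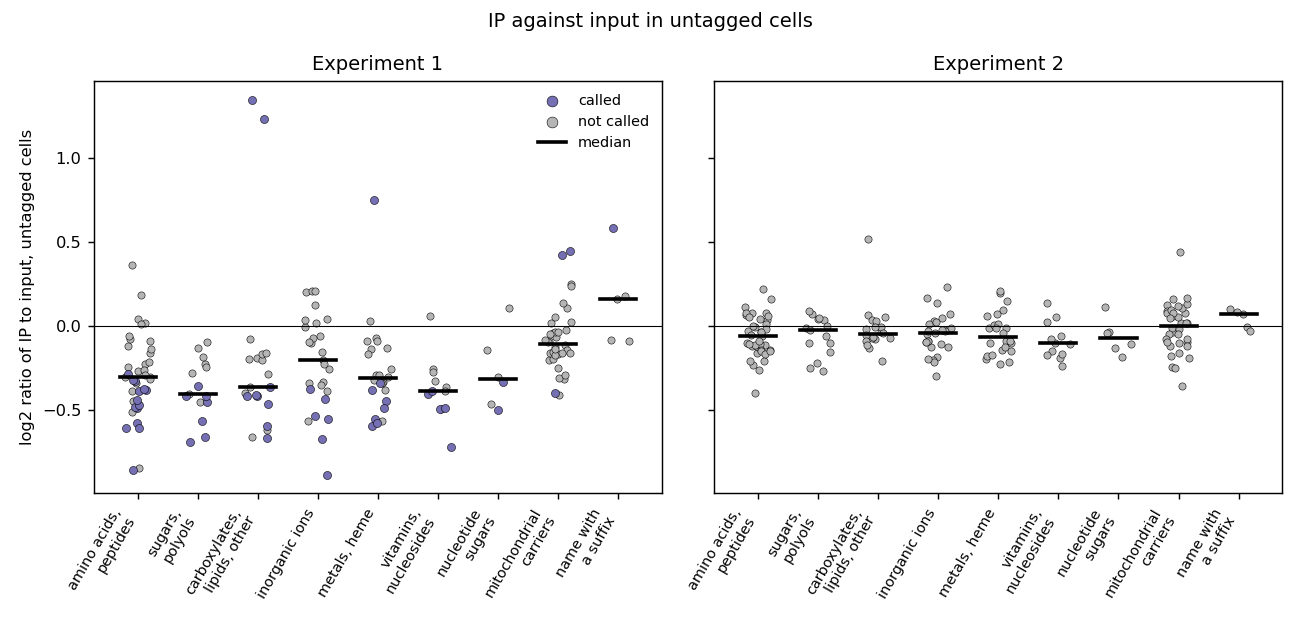
Log2 IP-to-input ratio of untagged cells for each of the 184 members, grouped by the class of their family, in experiments 1 and 2. Points are members, coloured where called by edgeR at an adjusted p under 0.05, and bars are class medians. In experiment 1 most classes lie below 0 and mitochondrial carriers have a median of -0.10, whereas in experiment 2 no member was called.

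Tag-specific enrichment is the log2 IP-to-input ratio of tagged cells minus that of untagged cells. It shares the untagged libraries with the background values above, so a low untagged ratio raises it by definition. In experiment 1 this was higher than 0 for 80 members (43.5%, against 28.1% of all genes) and lower for 40 (21.7%, against 28.8%). In either direction 120 were called (65.2%, against 56.9% of all genes). The member median was 0.23, that of all genes -0.10. In experiment 2 it was higher for 46 members (25%, against 18.9%) and lower for 20 (10.9%, against 8.77%), with 66 in either direction (35.9%, against 27.7%) and medians of -0.02 and -0.03. The experiments shared no library. They called 64 members in both, 46 higher and 18 lower, all 64 in the same direction, which is 53.3% of the calls of experiment 1 and 97% of those of experiment 2. The same overlap was not counted over all genes, so it is not shown to be particular to the members. Across the 184 members the 2 sets of values had a Spearman correlation of 0.883 (Pearson 0.927), and across all 18553 shared genes 0.722 (0.807). These correlations are across genes, which are not independent replicates. Scaling by total count alone moved the median of all genes of experiment 2 to -0.24 and its split to 52 lower and 36 higher. Leaving out tagged IP replicate 3 of experiment 2 gave 31 lower members, and leaving out replicate 1 gave 13.

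The most enriched member in both experiments was Slc48a1, the transporter that carries heme out of endosomes and lysosomes (chr15:97784365-97792692). Its untagged IPs of experiment 1 had 10.3, 11.7 and 10.5 CPM and its tagged IPs 212, 189 and 213 CPM, while the inputs stayed at 12.2 to 14.5 CPM in both genotypes. In experiment 2 the untagged IPs had 17.2, 18.4 and 19.5 CPM and the tagged IPs 177, 142 and 114 CPM. The tagged IPs stood above every untagged library. Tag-specific enrichment was 4.33 ± 0.14 (adjusted p = 3.22e-17) and 2.82 ± 0.22 (adjusted p = 6.5e-11) on the log2 scale. The gene overlaps Hdac7, and whether counting used the strand is not given in the sources used here.

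Slc45a3, which carries sugars and is known from prostate (chr1:131962915-131982972), came next. Its tagged IPs held 96.9, 82.4 and 107 CPM in experiment 1, against 6.29, 6.2 and 7.18 CPM in the untagged IPs, and 72.5, 47.4 and 43.4 CPM against 7.83, 8.24 and 8.46 CPM in experiment 2. Enrichment was 3.99 ± 0.20 and 2.67 ± 0.26 (adjusted p = 2.76e-14 and 5.03e-09), again without overlap of the groups. The magnesium transporter Slc41a1 reached 3.50 and 1.68.

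By class, carriers of metals and heme had 18 higher and 3 lower of 24 in experiment 1 and 9 higher and 3 lower in experiment 2. The 9 were the zinc transporters Slc30a1, Slc30a7, Slc39a1, Slc39a6 and Slc39a9, the manganese exporter Slc30a10, the copper importer Slc31a1, Slc41a1 and Slc48a1. Slc39a1 had tagged IPs of 169, 135 and 144 CPM in experiment 1 against untagged IPs of 22.2, 27.3 and 25.1 CPM, an enrichment of 2.60 ± 0.18 (adjusted p = 8.51e-12). In experiment 2 the tagged IPs had 100, 82.6 and 81.1 CPM and the untagged IPs 38.2, 38 and 40.4 CPM, 1.10 ± 0.14 (adjusted p = 4.61e-07). In contrast, Slc39a7, a zinc transporter of the endoplasmic reticulum and Golgi, fell by 0.59 in experiment 1 and by 0.37 in experiment 2.

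Mitochondrial carriers had 18 higher and 9 lower of 36 in experiment 1 and 13 higher and 4 lower in experiment 2. The enriched ones included Slc25a32, which carries folate and FAD (3.26 and 2.23), Slc25a51, the NAD carrier (3.22 and 1.98), Slc25a40 (3.0 and 2.13), the dicarboxylate carrier Slc25a10 (2.72 and 1.88), Slc25a44, which carries branched-chain amino acids (2.63 and 1.45), and Slc25a39, implicated in glutathione import (2.19 and 1.02). Slc25a32 had 190, 166 and 195 CPM in the tagged IPs of experiment 1 against 12.9, 12.1 and 16.3 CPM in the untagged IPs. The ADP/ATP carriers moved the other way. Slc25a5 had 208, 285 and 242 CPM in the tagged IPs of experiment 1 against 521, 500 and 519 CPM in the untagged IPs, and 428, 478 and 486 CPM against 592, 596 and 643 CPM in experiment 2. The groups did not overlap in either experiment. Its tag-specific value was -1.20 ± 0.19 (adjusted p = 8.08e-06) and -0.42 ± 0.08 (adjusted p = 0.000328). For Slc25a4 the values were -1.18 and -0.32, and for the germ-cell paralogue Slc25a31 -1.21 and -1.17. Among 23 genes of mitochondrial import 3 were higher and 17 lower in experiment 1, and 3 higher and 7 lower in experiment 2. Of the other carrier genes named outside the rule, 28 were higher and 9 lower of 56 in experiment 1 and 14 higher and 8 lower of 58 in experiment 2. Genes of endoplasmic reticulum translocation had 13 higher and 25 lower of 46, then 7 higher and 15 lower. ABC transporters had 3 higher and 10 lower of 33, then 1 higher and 3 lower of 37.

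Carriers of amino acids, peptides and neurotransmitters had 14 higher and 7 lower of 39 in experiment 1 and 7 higher and 5 lower in experiment 2. Slc6a15, a neutral amino acid transporter, was enriched by 3.24 and 1.83, and Slc6a9, the glycine transporter GlyT1, by 3.22 and 1.63. Slc3a2 and Slc1a5 of the amino acid exchange system were lower in both experiments. Slc3a2, the heavy chain that carries Slc7a5 to the surface, had 92.7, 119 and 101 CPM in the tagged IPs of experiment 1 against 189, 206 and 204 CPM in the untagged IPs. In experiment 2 it had 102, 131 and 145 CPM against 188, 174 and 178 CPM. Its tag-specific value was -1.04 ± 0.14 (adjusted p = 8.75e-07) and -0.48 ± 0.11 (adjusted p = 0.00206). The glutamine transporter Slc1a5 fell by 0.59 and by 0.41, whereas for Slc7a5 the values were -0.20 and -0.28 and neither was called.

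Sugar carriers had 6 higher and 4 lower of 15 in experiment 1 and 3 higher (Slc45a3, Slc2a4 and Slc37a3) and 2 lower in experiment 2. The insulin-responsive glucose transporter Slc2a4 had 2.83 and 1.11, while the glucose transporter Slc2a3 fell by 0.77 and by 0.48. Inorganic ion carriers had 9 higher and 7 lower of 27 and then 6 higher and 4 lower, and carriers of other organic solutes 7 higher and 5 lower of 20 and then 4 higher and 1 lower. Vitamin and nucleoside carriers had 4 higher and 2 lower of 12 and then 2 higher and 1 lower. The thiamine transporter Slc19a2 rose by 2.50 and 1.02, and the nucleoside transporter Slc29a1 fell by 0.88 and by 0.45. Nucleotide sugar carriers had 4 higher and 1 lower of 6 and then 2 higher and 0 lower, the 2 being Slc35a4 and Slc35a5. Of the 5 suffix names, 0 were higher and 2 lower in experiment 1, and 0 of either in experiment 2.

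Gene length moved with enrichment among members and among all genes. Across the 184 members tag-specific enrichment and gene length had a Spearman correlation of 0.22 in experiment 1 and 0.20 in experiment 2, against 0.26 and 0.20 over all genes. For the IP-to-input ratio of untagged cells the correlations with length were -0.02 and -0.32, against -0.02 and -0.20 over all genes. The part of length in these values was not tested. Slc17a5 and Slc22a17, which were higher in the untagged IP than in the input of experiment 1, differed from each other. Slc17a5 was enriched by 1.03 and 1.14 on the tag, and Slc22a17 had 3.65, 4.07 and 5.26 CPM in the tagged IPs of experiment 1 against 16.5, 18.9 and 15.9 CPM in the untagged IPs, a value of -1.43 ± 0.22 (adjusted p = 7.72e-06). In experiment 2 Slc22a17 had 11.7, 11.3 and 11.5 CPM against 17.8, 11.7 and 16.1 CPM, and the value was not called (-0.27 ± 0.19, adjusted p = 0.337).

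**Figure D2:**
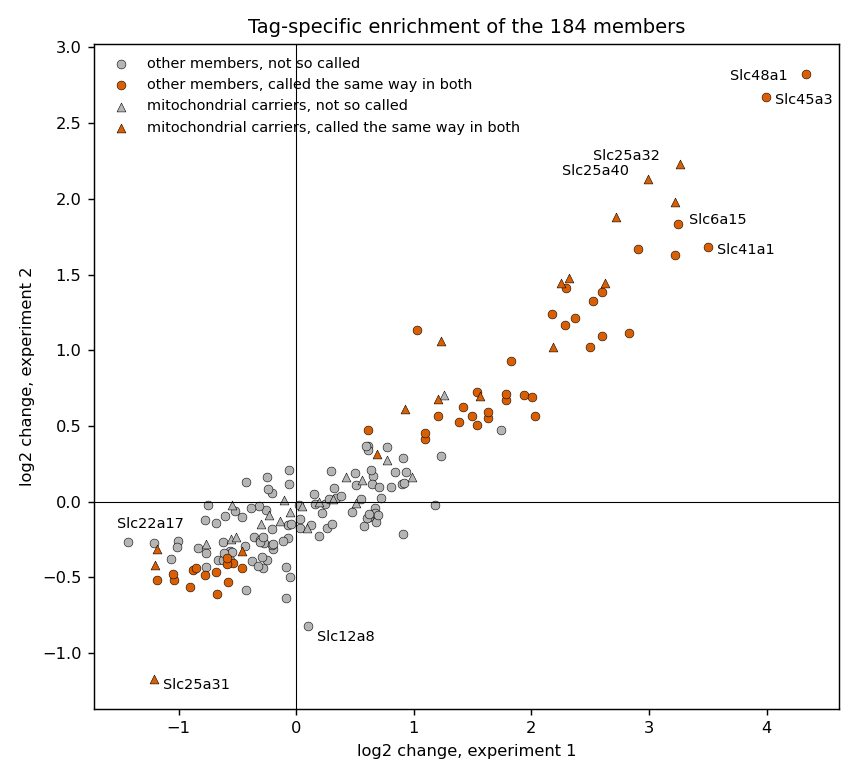
Tag-specific enrichment (log2 IP-to-input ratio, tagged minus untagged cells) of the 184 members in experiment 1 (horizontal) and experiment 2 (vertical); triangles are mitochondrial carriers, and orange marks members called in the same direction in both. The 46 members called higher in both lie in the upper right, up to Slc48a1 at 4.33 and 2.82, and the 18 called lower in both in the lower left.

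The Trim71-dependent value is the log2 IP-to-input ratio of tagged cells labelled Trim71KO minus that of tagged cells, and a negative value means less enrichment in the cells labelled Trim71KO. In experiment 1 it was lower than 0 for 13 members (7.07%, against 3.47% of all genes) and higher for 1, Slc25a13 (0.543% against 0.272%), 14 in either direction (7.61%, against 3.74%). In experiment 2 it was lower for 1 and higher for 1 (0.543% each, against 0.738% and 0.753%), 1.09% in either direction against 1.49%. The manganese exporter Slc30a10 was the member called in both. Medians were -0.09 for members and -0.04 for all genes in experiment 1 and 0.06 and 0.01 in experiment 2. With scaling by total count the first became 0.02 for members and 0.07 for all genes, with 7 members lower. The Trim71-dependent values of both experiments had a Spearman correlation of 0.18 across members (0.07 across all genes). With gene length they had a Spearman correlation of -0.31 across members in experiment 1 (-0.10 across all genes). In experiment 2 it was 0.02 across members (0.18 across all genes). The part of length in these values was not tested either.

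Slc30a10 (chr1:185454848-185468762) had 1.91, 3.21 and 2.85 CPM in the tagged inputs of experiment 1 and 5.25, 5.46 and 7.9 CPM in the tagged IPs. In cells labelled Trim71KO the inputs had 3.37, 4.8 and 4.47 CPM and the IPs 1.35, 2.33 and 3.9 CPM. In experiment 2 the tagged inputs had 9.47, 9.07 and 9.53 CPM and the IPs 12.2, 14.3 and 13.1 CPM, against inputs of 7.47, 6.43 and 7.88 CPM and IPs of 4.38, 5.96 and 7.23 CPM in the cells labelled Trim71KO. The tagged IPs exceeded the IPs labelled Trim71KO in every library of both experiments. The Trim71-dependent value was -1.95 ± 0.38 (adjusted p = 0.00236) and -0.79 ± 0.19 (adjusted p = 0.0337). The call of experiment 2 was lost in 7 of 12 fits that left out 1 library and in a fit of those groups alone. The untagged IPs had 1.77 to 2.35 CPM in experiment 1 and 6.48 to 8.9 CPM in experiment 2, a range that the IPs labelled Trim71KO overlapped. In the Ago2KO cells of experiment 2 the IPs had 11.8, 11.2 and 10.2 CPM, an Ago2-dependent value of 0.21 ± 0.18 (adjusted p = 0.724). The message is rare here, and its gene overlaps the predicted gene Gm2061.

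Among the other lower members of experiment 1, Slc25a40 fell by 1.01, Slc25a32 by 0.87, Slc25a51 by 0.78, Slc48a1 by 0.78, Slc37a3 by 0.68, Slc25a36 (pyrimidine nucleotides) by 0.58 and Slc25a37 (mitoferrin) by 0.54. Slc25a32 had 190, 166 and 195 CPM in the tagged IPs and 104, 87.6 and 81.8 CPM in the IPs labelled Trim71KO, at inputs of 22.7, 25.8 and 22.7 CPM and 22.6, 19.6 and 22.5 CPM. The IPs did not overlap (-0.87 ± 0.16, adjusted p = 0.00117). In experiment 2 its IPs had 117, 89.5 and 74.4 CPM in tagged cells and 87.5, 89.7 and 87.3 CPM in those labelled Trim71KO, which overlapped, and the value was -0.44 ± 0.19 (adjusted p = 0.263). Slc17a5 fell by 1.32 in experiment 1 and had -0.28 ± 0.19 in experiment 2 (adjusted p = 0.513). Of the 13 members, 12 had a negative value in experiment 2, that of Slc25a40 being 0.00 when rounded. Over all 184 members 91 had the same sign in both experiments. In experiment 1, 11 of the 13 were also tag-enriched, a comparison that shares the tagged libraries. By class they were 5 mitochondrial carriers, 2 of metals and heme, 2 of inorganic ions, 1 each of amino acids, organic solutes and sugars, and the suffix name Slc2a4rg-ps. Leaving out input replicate 3 labelled Trim71KO reduced the 13 to 6. The number was 7 without tagged input replicate 3 or without input or IP replicate 2 labelled Trim71KO, and 8 without tagged input replicate 2 or IP replicate 3 labelled Trim71KO.

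Slc20a1, the phosphate transporter, was also called lower in experiment 1, by 0.58 (adjusted p = 0.0143), a call lost in 7 of 12 fits without 1 library. In that experiment its input rose from 147, 127 and 130 CPM to 329, 332 and 338 CPM while its IP rose from 126, 125 and 108 CPM to 216, 211 and 166 CPM. In experiment 2 the Trim71-dependent value was -0.18 ± 0.09 (adjusted p = 0.307). Slc25a13, the aspartate-glutamate carrier citrin, rose by 0.40 in experiment 1 and had 0.15 in experiment 2. Slc12a7, a potassium-chloride cotransporter, rose by 0.59 in experiment 2 (adjusted p = 0.0414), where its IPs labelled Trim71KO had 158, 181 and 247 CPM against 151, 155 and 174 CPM in tagged cells, groups that overlapped. It had -0.01 in experiment 1, and its call of experiment 2 was lost in 9 of 12 fits without 1 library.

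Ago2 is an Argonaute protein that carries microRNAs, and a small set of members was less enriched in cells labelled Ago2KO. The Ago2-dependent value (cells labelled Ago2KO minus tagged cells, IP against input, experiment 2) was lower than 0 for 11 members, 5.98% against 3.77% of all genes. It was higher for 0 (all genes 0.384%, and 4.16% in either direction), with 25 members at an unadjusted p under 0.05 in either direction (13.6%, against 13.5% of all genes), and DESeq2 also called 0 higher. The median was 0.00 for members and for all genes. These values share the tagged libraries with the tag-specific and Trim71-dependent values of experiment 2. The 11 comprised 4 carriers of metals and heme (Slc39a1, Slc48a1, Slc41a1 and Slc30a7), 4 mitochondrial carriers (Slc25a10, Slc25a44, Slc25a51 and Slc25a39), the glycine transporter Slc6a9, the vesicular glutamate transporter Slc17a7 and the thiamine transporter Slc19a2. All 11 were tag-enriched in experiment 1, which shares no library with these values. In that experiment 43.5% of all members and 28.1% of all genes were called tag-enriched. The share among all genes with a lower Ago2-dependent value was not counted. Leaving out tagged IP replicate 1 gave 5 lower members, Ago2KO IP replicate 2 or 3 gave 6, tagged input replicate 2 or 3 or Ago2KO input replicate 1 gave 7, and a fit of those groups alone or scaling by total count gave 7.

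Slc39a1 (chr3:90248190-90253613) had 44.5, 37.2 and 40.8 CPM in the tagged inputs of experiment 2 and 100, 82.6 and 81.1 CPM in the tagged IPs. In Ago2KO cells the inputs had 63.6, 57.1 and 56.1 CPM and the IPs 61.5, 65.7 and 59.8 CPM, so that their ranges overlapped. The value was -1.02 ± 0.14 (adjusted p = 2.2e-05). In cells labelled Trim71KO the IPs had 90.1, 91.1 and 123 CPM at inputs of 51.2, 51.5 and 49.5 CPM, a Trim71-dependent value of -0.10 ± 0.14 (adjusted p = 0.788). Slc48a1 had IPs of 83.1, 49.5 and 53.2 CPM in Ago2KO cells against 177, 142 and 114 CPM in tagged cells, a value of -0.98 ± 0.21 (adjusted p = 0.00489). Its IPs did not overlap, although the ratios of IP to input did. Those Ago2KO IPs still exceeded the untagged IPs of 17.2 to 19.5 CPM.

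Slc25a39 had IPs of 672, 566 and 518 CPM in tagged cells and 487, 431 and 428 CPM in Ago2KO cells, at inputs of 280, 281 and 275 CPM and 310, 300 and 302 CPM. The groups did not overlap, and the value was -0.51 ± 0.10 (adjusted p = 0.0026). Slc25a44 had IPs of 54.3, 45.4 and 37.9 CPM against 33.8, 30.3 and 29.5 CPM (-0.71 ± 0.15, adjusted p = 0.00333). Slc6a9 had 26.8, 19.4 and 21.7 CPM against 18.6, 16 and 17.9 CPM (-0.82 ± 0.21, adjusted p = 0.0221), with inputs of 7.75, 6.83 and 6.19 CPM against 10.1, 9.82 and 8.47 CPM. Its IPs were separated by a small gap, its call was lost in 6 of 12 fits without 1 library, and the gene overlaps Ccdc24. Slc25a10, Slc17a7, Slc19a2, Slc25a51 and Slc30a7 lost their calls in 5, 6, 9, 4 and 4 of those 12 fits, and Slc41a1 in 1. Several strongly enriched members had values near 0, among them Slc45a3 at -0.07 ± 0.24, Slc25a32 at -0.11 ± 0.19, Slc25a40 at -0.14 ± 0.21 and Slc6a15 at 0.08 ± 0.19.

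**Figure D3:**
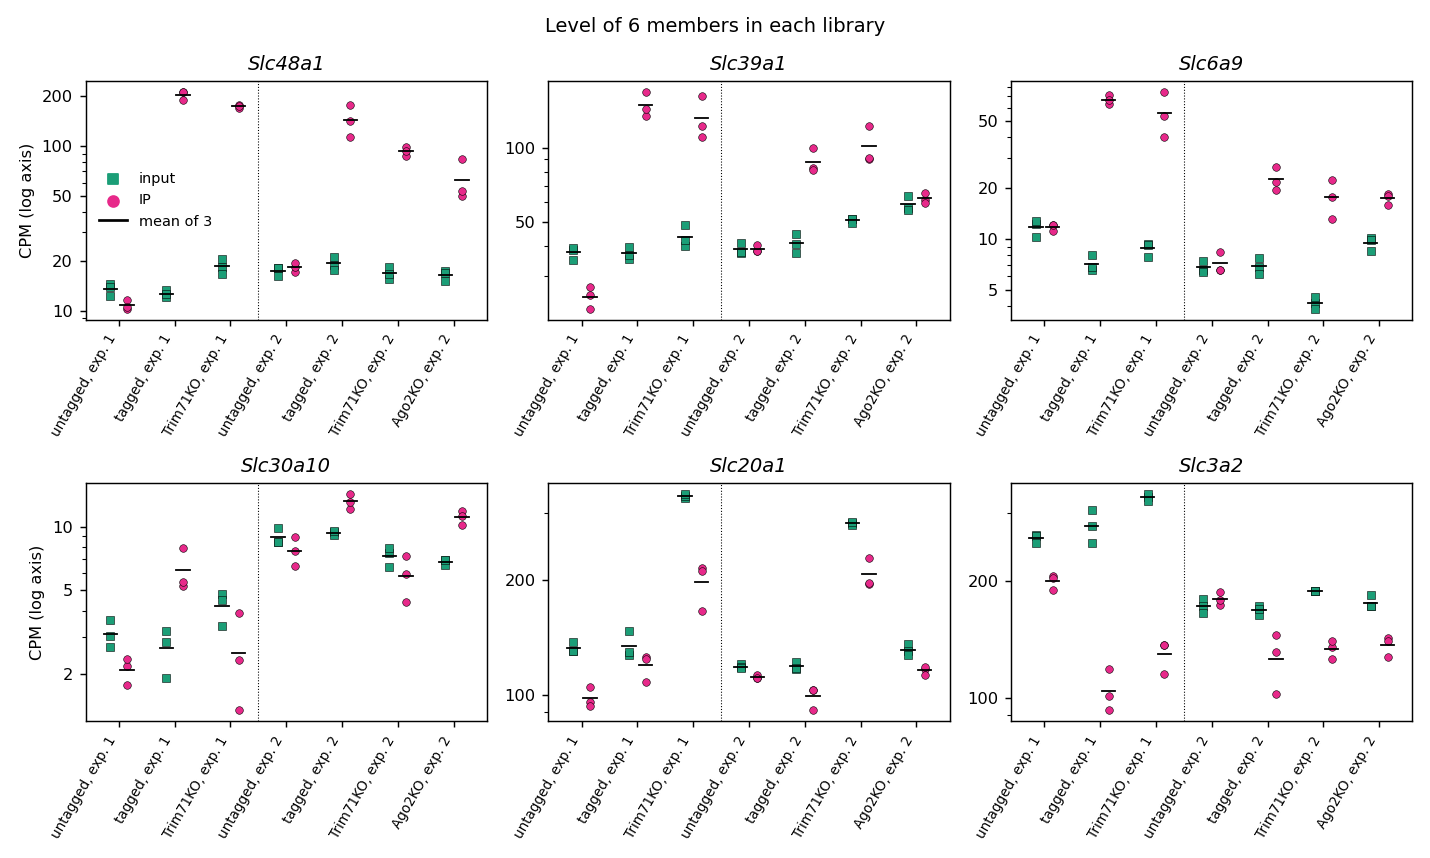
CPM on a log axis of Slc48a1, Slc39a1, Slc6a9, Slc30a10, Slc20a1 and Slc3a2 in each library, inputs as squares and IPs as circles, 3 per group with the mean as a bar; the dotted line divides experiment 1 from experiment 2. The IPs of Slc48a1 and Slc39a1 in tagged cells stand above their inputs, the Slc39a1 IPs of Ago2KO cells lie at 59.8 to 65.7 CPM, and those of Slc30a10 are lower in the cells labelled Trim71KO than in tagged cells.

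Cells labelled Trim71KO and Ago2KO were compared directly in experiment 2, without the tagged libraries. Enrichment was higher in those labelled Trim71KO for 30 members (16.3%, against 8.94% of all genes) and lower for 2 (1.09%, against 2.86%), 32 in either direction (17.4%, against 11.8%). Medians were 0.06 for members and -0.01 for all genes. The largest differences were those of Slc25a10, the dicarboxylate carrier (1.28 ± 0.24, adjusted p = 0.00054), Slc6a9 (1.20 ± 0.22, adjusted p = 0.000461), Slc25a44 (1.07 ± 0.14, adjusted p = 8.34e-06), Slc41a1 (0.99), Slc19a2 (0.93), Slc39a1 (0.92) and Slc12a7 (0.83). Slc25a10 had IPs of 31, 29.9 and 28.8 CPM in the cells labelled Trim71KO and 15.7, 11.2 and 11.8 CPM in Ago2KO cells, without overlap. The 30 higher members included 9 of 36 mitochondrial carriers, 6 of 27 carriers of inorganic ions and 4 of 24 of metals and heme. The 2 lower ones were Slc30a10 (-1.0 ± 0.19, adjusted p = 0.000762) and Slc20a1 (-0.27 ± 0.08, adjusted p = 0.0364). The Slc20a1 call was lost in 5 of 12 fits without 1 library. Leaving out 1 library at a time gave 20 to 34 higher members. The 2 lower became 1 without input replicate 1 or 2 or IP replicate 2 labelled Trim71KO or Ago2KO input replicate 3, and 4 without IP replicate 3 labelled Trim71KO.

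In the input RNA, cells labelled Trim71KO had more of many transporter messages than tagged cells. In experiment 1, 59 members were higher (32.1%, against 16.5% of all genes) and 22 lower (12%, against 17.4%), 81 in either direction (44%, against 34%). In experiment 2, 47 were higher (25.5%, against 13.5%) and 29 lower (15.8%, against 13.7%), 76 in either direction (41.3%, against 27.2%). Medians were 0.15 and 0.05 for members and -0.01 for all genes in both. The calls shared by the experiments numbered 42. Of these, 34 were higher and 6 lower in both, and 2, among them the amino acid transporter Slc38a3, had opposite signs. The shared 42 made up 51.9% of the calls of experiment 1 and 55.3% of those of experiment 2. The shared calls over all genes were not counted for comparison. In bulk RNA, fewer cells of a type and less RNA per cell cannot be told apart. Scaling by total count gave 34 lower and 35 higher members in experiment 2, where the median of all genes moved to -0.08 and that of members to -0.02. Leaving out tagged input replicate 3 of experiment 2 reduced the 29 lower members to 19.

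Slc13a5, the citrate transporter, rose most in experiment 1 (chr11:72241990-72267295, overlapping 1700051A21Rik and Gm34252). Its tagged inputs had 12.8, 12.5 and 14.6 CPM and its inputs labelled Trim71KO 62.8, 61.8 and 63.5 CPM, and in experiment 2 they had 24.7, 21.4 and 22.9 CPM against 75.4, 70.6 and 83.2 CPM. The groups lay far apart, with log2 changes of 2.24 ± 0.11 (adjusted p = 3.9e-12) and 1.73 ± 0.12 (adjusted p = 3.13e-11). Slc6a8, the creatine transporter, had 114, 117 and 114 CPM against 307, 302 and 282 CPM in experiment 1, and 113, 110 and 106 CPM against 255, 244 and 247 CPM in experiment 2. Its changes were 1.37 ± 0.09 (adjusted p = 9.08e-11) and 1.18 ± 0.06 (adjusted p = 3.23e-14). For Slc20a1 the changes were 1.31 ± 0.10 (adjusted p = 1.28e-09) and 1.25 ± 0.06 (adjusted p = 4.72e-14), its inputs of experiment 2 rising from 122, 117 and 118 CPM to 284, 280 and 284 CPM.

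Other members higher in both were Slc66a2 (1.33 and 1.78), the vesicular nucleotide transporter Slc17a9 (1.37 and 0.95), the lysosomal amino acid transporter Slc36a1 (1.28 and 0.75), the taurine transporter Slc6a6 (1.24 and 0.71), Slc37a1, a sugar-phosphate exchanger (1.10 and 1.40), and the inositol transporter Slc5a11 (1.12 and 1.34). Of metal carriers, the importers Slc39a4, Slc39a11 and Slc39a14, the exporters Slc30a2 and Slc30a6, and Slc31a2 rose in both. Slc7a5 rose by 0.58 and 0.29, while Slc3a2 had 0.25 and 0.16 (adjusted p = 0.0512 and 0.139). The 6 lower members were Slc43a1, a large neutral amino acid transporter (-0.96 and -1.38), the fructose transporter Slc2a5 (-0.76 and -1.05), Slc16a13 (-0.81 and -0.65), Slc25a4 (-0.74 and -0.55), Slc26a10 and the zinc-transporter family member Slc30a9. Slc43a1 had 5.17, 5.79 and 6.01 CPM in tagged inputs and 3.13, 2.38 and 3.23 CPM in those labelled Trim71KO in experiment 1, and 5.43, 4.8 and 5.03 CPM against 1.77, 2 and 2.08 CPM in experiment 2. Both pairs of groups were separated.

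By class, in experiment 1, amino acid carriers had 13 higher and 2 lower of 39, ion carriers 11 and 3 of 27, metal carriers 8 and 1 of 24, sugar carriers 8 and 2 of 15, carriers of other organic solutes 8 and 3 of 20, and vitamin and nucleoside carriers 4 and 0 of 12. Nucleotide sugar carriers had 0 higher and 0 lower of 6. Mitochondrial carriers had 6 higher and 9 lower of 36. In experiment 2 the mitochondrial carriers had 8 higher and 2 lower, amino acid carriers 11 and 8, and ion carriers 5 and 7. Among comparison lists, mitochondrial import had 1 higher and 10 lower of 23 genes in experiment 1 and 2 higher and 0 lower in experiment 2. Of 33 ABC transporters 11 were higher and 1 lower in experiment 1, and of 37 in experiment 2, 6 were higher and 4 lower. Targets of the amino acid response factor Atf4 had 3 higher and 0 lower of 22, then 2 higher and 9 lower.

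Markers of other cell types moved in the same inputs. Of 10 primitive endoderm genes 7 fell in experiment 1 (median -2.80), their summed level going from 133 to 217 CPM in tagged inputs to 94.3 to 102 CPM in those labelled Trim71KO. In experiment 2, 6 of 9 fell and 1 rose, at sums of 66.8 to 85.5 CPM and 75.3 to 83.8 CPM. Most of these sums was Lama1, so they say little of the other genes. In experiment 2 Lama1 had 52.1 ± 8.43 CPM in tagged inputs and 68.4 ± 3.76 CPM in those labelled Trim71KO. Of 10 fibroblast genes 4 were in the tables, and 3 of those 4 rose in experiment 1, where sums went from 421 to 833 CPM to 1251 to 1403 CPM. Most of that sum was Fn1, at 591 ± 207 CPM in tagged inputs and 1256 ± 73.5 CPM in those labelled Trim71KO. Col1a1 had 2.1 ± 0.68 and 4.28 ± 0.31 CPM, Thy1 21.8 ± 1.56 and 55.8 ± 1.77 CPM, and Pdgfrb 8.18 ± 0.085 and 8.89 ± 1.12 CPM. In experiment 2 Thy1 rose and Pdgfrb fell. None of the listed genes in the tables had 3 counts or fewer in all 3 libraries of a group. Some endoderm genes were close to that in the experiment 1 inputs labelled Trim71KO. There Foxa2 had 0.074 ± 0.092 CPM, Gata6 0.415 ± 0.156 CPM and Sox17 0.675 ± 0.358 CPM. The untagged inputs of experiment 1 had 821 to 829 CPM for the fibroblast genes and 177 to 182 CPM for the endoderm genes. These values are of marker RNA and do not show that such cells were present. The part of the marker genes in the transporter results was not tested.

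Promoters were searched for letters that factors controlling transporter genes are known to bind: CACGTG, the palindromic E-box, and TGATGNAA, the core of the amino acid response element, on both strands within the 250 bases before each start listed by RefSeq (GRCm38.p6). All 184 members matched a RefSeq gene and 136 had a promoter sequence. CACGTG was present for 22 of the 136 (16.2%), for 9.72% of 11997 genes tested in experiment 2 that have one, and for 6.86% of 27025 genes in all. Among members higher in both inputs labelled Trim71KO 4 of 22 held it (18.2%), and among those lower in both 1 of 5. TGATGNAA was present for 5 of the 136 (3.68%), against 2.4% of genes tested and 3.91% of the 27025 genes in all. Among members higher in both inputs labelled Trim71KO 0 of 22 held it, and among those lower in both 1 of 5. Printed below are Slc20a1 (chr2:129198523-129198772, plus strand, the first of its listed starts), Slc37a1 (chr17:31295974-31296223, plus strand) and Slc43a1 (chr2:84840073-84840322, plus strand). The first was chosen by name. The others were picked for their mean input change, 1.25 for Slc37a1 and -1.17 for Slc43a1. They came from members called the same way in both inputs labelled Trim71KO that have 1 listed start. Not every such member was eligible, so larger changes exist among the members. Capitals mark CACGTG, which Slc20a1 holds 2 times, Slc43a1 1 time and Slc37a1 not at all. The matches are a description of the letters.
Slc20a1: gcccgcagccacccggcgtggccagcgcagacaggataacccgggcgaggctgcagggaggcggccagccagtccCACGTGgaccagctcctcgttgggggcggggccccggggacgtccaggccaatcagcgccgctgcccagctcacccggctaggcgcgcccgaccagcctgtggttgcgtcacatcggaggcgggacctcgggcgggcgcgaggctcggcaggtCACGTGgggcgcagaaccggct
Slc37a1: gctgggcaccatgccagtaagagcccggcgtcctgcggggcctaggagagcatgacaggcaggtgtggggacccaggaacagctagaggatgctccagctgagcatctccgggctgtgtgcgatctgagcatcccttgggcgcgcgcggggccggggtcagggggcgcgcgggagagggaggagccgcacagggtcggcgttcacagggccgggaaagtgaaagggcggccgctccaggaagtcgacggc
Slc43a1: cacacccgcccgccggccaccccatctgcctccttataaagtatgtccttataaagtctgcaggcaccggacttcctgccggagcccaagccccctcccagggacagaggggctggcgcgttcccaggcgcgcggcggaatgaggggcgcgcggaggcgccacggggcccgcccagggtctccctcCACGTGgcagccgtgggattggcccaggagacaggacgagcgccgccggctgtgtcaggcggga

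**Figure D4:**
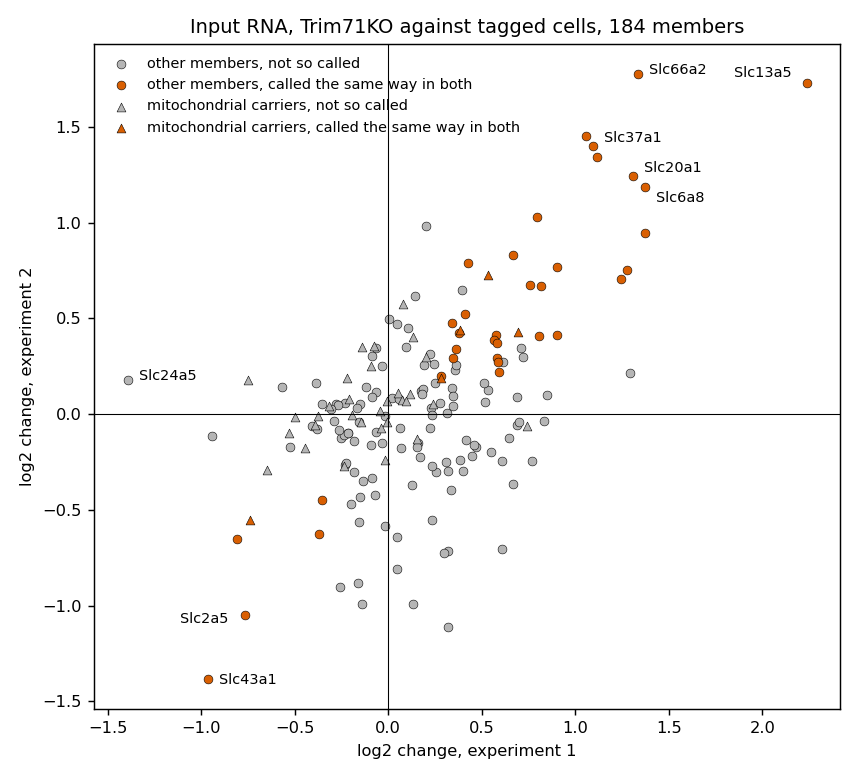
Log2 change of input RNA in cells labelled Trim71KO against tagged cells for the 184 members, experiment 1 (horizontal) and experiment 2 (vertical); triangles are mitochondrial carriers and orange marks members called in the same direction in both. The 34 members called higher in both lie in the upper right, up to Slc13a5 at 2.24 and 1.73, and the 6 called lower in the lower left.

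In the input RNA of Ago2KO cells 10 members were higher than in tagged cells (5.43%, against 4.38% of all genes) and 9 lower (4.89%, against 2.57%), 19 in either direction (10.3%, against 6.96%), with medians of -0.03 and 0.01. Scaling by total count gave 8 higher and 12 lower, and a fit of those 2 groups alone called 17 higher and 25 lower. The 9 lower became 4 without Ago2KO input replicate 2, 5 without Ago2KO input replicate 1 or any 1 of the 3 tagged inputs, and 6 without Ago2KO input replicate 3. Slc43a1 rose by 0.78, Slc6a15 by 0.65, Slc37a1 by 0.63, Slc39a1 by 0.53, Slc36a1 by 0.51 and Slc66a2 by 0.50. Slc43a1 had 8.63, 8.15 and 9.39 CPM in Ago2KO inputs against 5.43, 4.8 and 5.03 CPM in tagged inputs, without overlap (adjusted p = 0.0046). The inositol transporter Slc5a3 fell by 0.59 (adjusted p = 0.00737), and the glucose transporter Slc2a1 fell by 0.49, from 744, 741 and 824 CPM to 576, 533 and 538 CPM (adjusted p = 0.0116). The Slc2a1 call was lost without tagged input replicate 3 or Ago2KO input replicate 2. Slc37a1, Slc36a1 and Slc66a2 rose against the tagged inputs in the cells labelled Trim71KO as well, comparisons that share those tagged inputs. Of 9 endoderm genes 4 fell, with sums of 58.8 to 67.2 CPM in Ago2KO inputs, most of it Lama1 (49.6 ± 4.63 CPM). The part of the endoderm genes in these values was not tested.

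**Figure D5:**
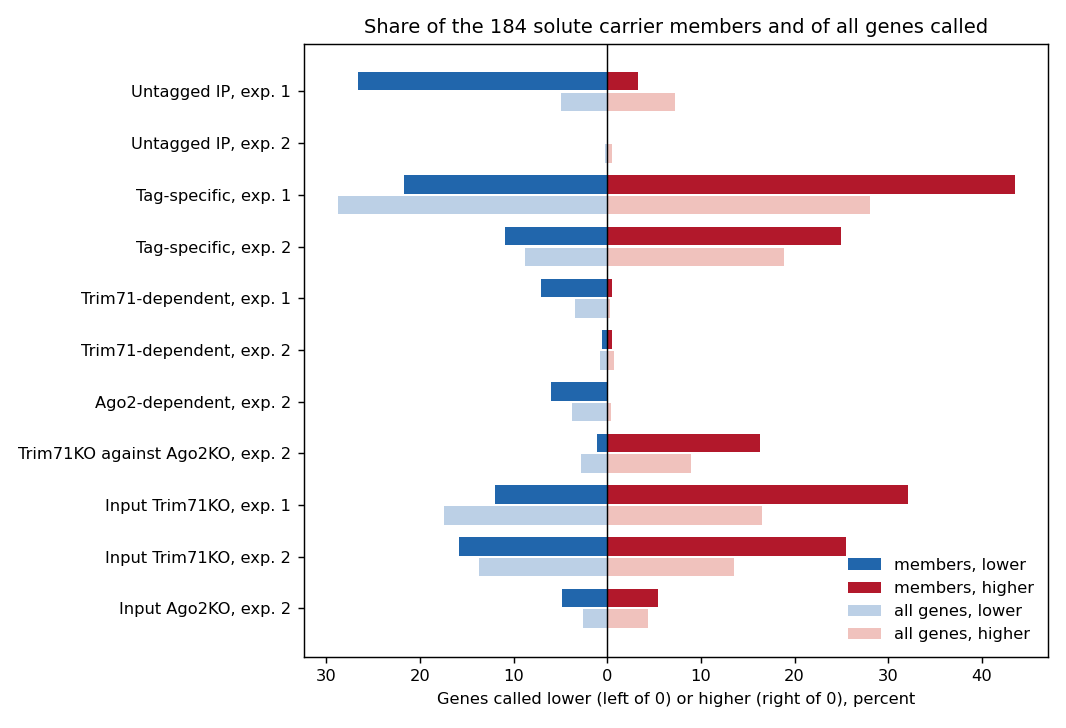
Percent of the 184 members (dark bars) and of all genes tested (pale bars) called lower (left) or higher (right) by edgeR at an adjusted p under 0.05 in each of the 11 comparisons. The members' bars are longer than those of all genes for lower calls in the untagged cells of experiment 1 (26.6% against 4.9%) and for higher calls of the tag-specific contrast (43.5% against 28.1% in experiment 1) and of the inputs labelled Trim71KO (32.1% against 16.5% in experiment 1). The untagged and tag-specific contrasts of an experiment share the untagged libraries.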

How the data were processed

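RNA of inputs and immunoprecipitates was measured with a stranded total RNA kit, per the labels' protocols. The submitters' processing notes name bcl2fastq 2.20, STAR 2.7.3a and GRCm38/mm10, with no role or order. The counting tool and its use of strand are not given in the sources used here. Per the file headers, the authors deposited 1 table for each experiment that holds raw counts of reads by gene, gene lengths and RPKM. Counts were tested in R 4.3.3 with edgeR 4.0.16: filterByExpr, TMM scaling, glmQLFit and glmQLFTest, all groups of an experiment in 1 fit, experiments separately. Enrichments are interactions of IP and input. A call is an adjusted p under 0.05 (Benjamini-Hochberg, over every gene that passed the filter). CPM use TMM-scaled totals. RPKM was used for levels between genes alone. The members and lists were chosen with earlier results of these data known.

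Members described were those with the largest changes each way (at most 8) among called members with separated groups and a mean log2 CPM of at least 2, known transporters, the most abundant of each class, and calls shared by both experiments; others that are named were chosen after their values were seen. Alternatives were other scalings, DESeq2 1.42.0, no filter, other membership thresholds (20 and 200), replicate blocks, only the groups compared, and each library left out. On simulated counts with 200 changed genes, the Trim71-dependent test of experiment 1 (18373 genes) recovered 83 of 100 changes of 2-fold and 100 of 100 of 4-fold, with 5.18% false calls. That of experiment 2 (19529 genes) recovered 92 and 100 of 100, with 2.04% false calls. Replicates of a group differed by more than counting noise (chi-square per gene 2.87 to 64.1). Differences between replicates bound what can be called at these depths. Some members are counted in the totals but not reported here by name.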

Additional observations from a re-analysis of the deposited data

Results flagged for a closer look

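For 9 members, all of them picked by the naming rules, every library pair moved one way in experiment 1 and the opposite way in experiment 2 under the same contrast. The 9 are not a count over all members, and no share of all genes is given for comparison. Slc38a3, called with opposite signs in the inputs labelled Trim71KO, was not picked by those rules and is not among them. The differences between experiments were not tested. Slc24a5 is a melanosomal ion exchanger whose gene overlaps Myef2. In the input of cells labelled Trim71KO against tagged cells, it had a log2 change of -1.39 in experiment 1 and 0.18 in experiment 2. In experiment 1 its inputs had 49.9, 65.7 and 47 CPM in tagged cells and 19.4, 19.4 and 19.8 CPM in untagged cells, and in experiment 2 the tagged inputs had 45.1, 42.5 and 41.4 CPM. The glutamine transporter Slc1a5 had 0.45 and -0.22, Slc22a17 0.32 and -0.71, and Slc30a10 0.67 and -0.37. Among mitochondrial carriers in the same contrast, Slc25a20, the carnitine-acylcarnitine carrier, had -0.22 and 0.19, and Slc25a32 had -0.14 and 0.35. In untagged cells the citrate carrier Slc25a1 had log2 IP-to-input ratios of -0.09 and 0.13, Slc25a40 0.42 and -0.25, and Slc25a5 -0.08 and 0.13.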

How the results depend on the processing

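Signs were compared only for the members picked by the naming rules and called in the main fit, and none of those values changed sign under the alternatives. The signs of other members were not checked. With library size alone the tag-specific split of experiment 2 turned from 46 higher and 20 lower to 36 higher and 52 lower. The member median moved from -0.09 to 0.02 (Trim71-dependent, experiment 1) and from 0.05 to -0.02 (Trim71KO input, experiment 2). Counts of members called that moved by over 1.5 times were as follows. Library size alone gave 156 lower and 2 higher for the untagged IP of experiment 1, 1 lower for that of experiment 2, 52 lower for the tag-specific contrast of experiment 2, 7 lower for the Trim71-dependent contrast of experiment 1, 3 higher for that of experiment 2, and 7 lower for the Ago2-dependent contrast. Only the groups compared gave 78 lower (untagged IP, experiment 1), 0 higher (Trim71-dependent, experiment 1), 0 lower and 0 higher (Trim71-dependent, experiment 2), 7 lower (Ago2-dependent), 1 lower (Trim71KO against Ago2KO), and 25 lower and 17 higher (Ago2KO input). DESeq2 gave 2 higher in experiment 1 and 2 lower and 3 higher in experiment 2 for the Trim71-dependent contrast. For the same contrast of experiment 2, RLE scaling and no filter each gave 0 higher. A threshold of 20 gave 2 higher there, and 200 gave 0 lower, 2 higher for the untagged IP of experiment 1, 1 lower for Trim71KO against Ago2KO and 11 lower for the Trim71KO input of experiment 2. The cause of these moves was not tested, apart from the thresholds, which change how many members are tested.

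Leaving out each library in turn gave, lower then higher: untagged IP 26 to 39 and 2 to 5 (experiment 1), 0 to 0 and 0 to 1 (experiment 2); tag-specific 33 to 40 and 78 to 86, then 13 to 31 and 41 to 50; Trim71-dependent 6 to 16 and 0 to 2, then 0 to 1 and 0 to 5; Ago2-dependent 5 to 15 and 0 to 0; Trim71KO against Ago2KO 1 to 4 and 20 to 34. For inputs the ranges were 16 to 23 and 50 to 61 (Trim71KO, experiment 1), 19 to 27 and 34 to 47 (experiment 2), and 4 to 6 and 9 to 10 (Ago2KO).

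The replicate numbers were not shown to pair the libraries, since in no pair of groups did all 3 correlations of same-numbered libraries exceed 0.1. With the replicate number as a block, within fraction or by dish, the Trim71-dependent contrast had 0 higher members in experiment 1, and by dish 3 higher in experiment 2; other counts stayed within 1.5 times. In experiment 2 every library correlated best with its own number between tagged cells and those labelled Trim71KO (inputs and IPs) and between the tagged and Ago2KO inputs, a hint from the data and not from the design.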
